A study of Mus musculus with 12 samples.

Results

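The inhibitory checkpoint receptors described here are 10 genes taken by symbol from the deposited count table: Pdcd1 (encoding PD-1), Ctla4, Btla, Tigit, Pvrig, Lag3, Havcr2 (TIM-3), Cd160, Cd244a (2B4) and Vsir (VISTA). The choice was by name and set no threshold on a value, but it was made with earlier results of these data known. All 10 of these symbols were among the 53762 in the table, and all 10 passed the filter on low counts that left 16945 genes for testing. RNA had been sequenced from mouse spleen T cells kept in co-culture with partner cells named Res, and the study asked which of their genes differ by partner. The partner was Res_ctrl (called control cells below) or Res_shFabp7 (shFabp7 cells), which by its name carries a short hairpin RNA against Fabp7, a fatty acid binding protein gene. Co-culture lasted 24 h or 48 h, with 3 libraries in each of the 4 groups and 12 in all. The hairpin is in the partner and not in the T cells, and every group had a partner, so no value here is from T cells cultured alone. The strain and age of the mice, the identity of Res cells, the stimulus given to the T cells and any sorting are not given in the sources used here.

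Checkpoint receptors are surface proteins that dampen T cell signalling, and most of them appear or increase after a T cell is activated. PD-1 and BTLA recruit phosphatases to tyrosine motifs in their tails, whereas CTLA-4 takes the ligands CD80 and CD86 away from the activating receptor CD28. TIGIT and PVRIG compete in a like way with the activating receptor CD226 for ligands of the poliovirus receptor and nectin family, LAG-3 binds MHC class II, and VISTA is known for its presence on resting T cells.

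The promoter sequences of the 5 genes that differed by partner at 48 h are shown because the results turn on these genes, 3 higher and 2 lower. They are RefSeq windows of build GRCm38.p6, from 250 bases before to 50 after the transcription start, printed 5′ to 3′ on the gene's own strand. The counts themselves were made on GRCm39, so the coordinates belong to the windows only. Capitals mark matches on either strand to 5 short motifs: the NFAT core GGAAAA, the AP-1 motif TGANTCA, the Runx core TGTGGT, the E-box CACGTG and the T-box half-site GGTGTGA. The Runx and T-box motifs can share bases where they meet, and no matches in these windows overlapped.
Tigit, chr16:43664135-43664434, minus strand: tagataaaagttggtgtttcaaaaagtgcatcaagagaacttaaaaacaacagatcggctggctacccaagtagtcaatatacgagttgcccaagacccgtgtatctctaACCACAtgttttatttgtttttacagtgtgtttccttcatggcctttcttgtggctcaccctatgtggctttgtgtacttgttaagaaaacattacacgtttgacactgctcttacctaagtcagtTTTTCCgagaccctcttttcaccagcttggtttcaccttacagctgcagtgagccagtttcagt
Btla, chr16:45224087-45224386, plus strand: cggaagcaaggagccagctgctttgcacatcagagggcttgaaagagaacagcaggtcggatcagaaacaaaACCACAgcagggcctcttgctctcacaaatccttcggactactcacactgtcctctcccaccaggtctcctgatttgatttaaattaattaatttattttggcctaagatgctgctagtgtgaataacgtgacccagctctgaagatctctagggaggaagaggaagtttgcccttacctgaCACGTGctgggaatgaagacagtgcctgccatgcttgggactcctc
Cd160, chr3:96829302-96829601, minus strand, the first of its 2 windows: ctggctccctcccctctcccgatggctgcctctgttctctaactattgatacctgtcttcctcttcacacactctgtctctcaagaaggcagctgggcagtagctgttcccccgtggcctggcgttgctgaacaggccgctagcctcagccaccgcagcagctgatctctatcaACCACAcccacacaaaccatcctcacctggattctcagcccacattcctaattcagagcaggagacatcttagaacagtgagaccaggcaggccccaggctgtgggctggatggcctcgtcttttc
Pvrig, chr5:138341681-138341980, plus strand: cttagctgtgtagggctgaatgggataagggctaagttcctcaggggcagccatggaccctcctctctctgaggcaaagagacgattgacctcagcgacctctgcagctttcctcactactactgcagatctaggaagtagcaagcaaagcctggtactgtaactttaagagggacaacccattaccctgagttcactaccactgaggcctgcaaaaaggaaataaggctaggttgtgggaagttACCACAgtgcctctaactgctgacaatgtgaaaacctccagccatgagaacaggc
Vsir, chr10:60346601-60346900, plus strand: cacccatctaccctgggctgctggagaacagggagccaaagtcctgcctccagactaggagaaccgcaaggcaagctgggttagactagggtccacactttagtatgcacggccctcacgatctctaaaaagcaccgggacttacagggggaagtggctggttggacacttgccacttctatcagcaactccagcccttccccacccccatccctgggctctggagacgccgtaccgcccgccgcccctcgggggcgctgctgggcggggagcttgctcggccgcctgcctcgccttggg

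Among the 32851 windows of this length in the RefSeq table, the Runx core occurred in 16.8%, the NFAT core in 23.4%, the AP-1 motif in 7.81%, the E-box in 7.15% and the T-box half-site in 3.98%. The Runx core was found in the windows of Tigit, Btla, Cd160 and Pvrig, that is in genes that moved in opposite directions, and none of the 5 motifs was found in the window of Vsir. Among windows not printed, the Runx core was in the second of Cd160 and in that of Havcr2, which did not pass by partner. It was not in those of Pdcd1, Ctla4 and Cd244a. Tigit also held an NFAT core 14 bases before the RefSeq start, and Btla an E-box just after it. These matches describe letters only, and 6-letter cores occur in many promoters. RefSeq windows were found for 9 of the 10 genes. For Btla, Cd160 and Vsir the end of the printed window lay near the start of a transcript in the GENCODE vM21 annotation. For Tigit and Pvrig it did not, so the start in those windows, and distances from it, rest on RefSeq alone.

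Library totals were 31.95 to 40.64 M counts. Replicates differed by more than counting noise in every pair, with a chi-square per degree of freedom of 4.34 to 14.2. Nothing in the labels says that replicates were separate cultures or animals, so p-values measure the spread between these libraries, which may be technical. Fabp7 had 0 counts in 9 T cell libraries and 1 to 3 counts in the 3 control libraries at 48 h, at or under the detection floor of 3 counts, so it does not check the knockdown in the partner. The labelled cell type was borne out by Cd3e, a T cell receptor subunit gene, at 408 ± 15.3 CPM beside control cells at 24 h (SD, n = 3). The 10 T cell markers summed to 2601 to 3626 CPM per library and the 6 regulatory T cell markers to 1142 to 1451 CPM. Markers of B cells, monocytes and macrophages, neutrophils, NK cells and epithelium summed to at most 25.2 CPM per list in any library, and 3 gamma delta T cell markers to at most 25.8 CPM. The 9 mesenchymal and melanocyte markers summed to 425 to 804 CPM, nearly all of it Thy1, which T cells express as well (group means of 437 to 797 CPM). Levels below are CPM, a gene's counts relative to its library's total after scaling by the trimmed mean of M-values (TMM), given ± SD over 3 libraries. Log2 fold changes are ± SE, and adjusted p-values come from edgeR's quasi-likelihood test with Benjamini-Hochberg adjustment over all 16945 genes and a threshold of 0.05. RNA of a mixed cell sample cannot tell fewer cells of a type from less RNA per cell.

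By the median over the 10 genes, time moved these receptors further than the partner did, and it moved them in opposite directions. All tested genes also had a larger median absolute change over time. Pvrig went against this, at -1.05 and -1.10 by partner and -0.63 and -0.68 over time. Tigit and Cd160 had larger partner effects at 48 h (0.31 and 0.40) than changes over time beside control cells (0.07 and 0.16). By size of the estimate so did Btla (0.24 against -0.21) and Ctla4 (-0.13 against 0.04). With library totals alone this order turned for Tigit (0.228 by partner, 0.258 over time), Cd160 (0.313 and 0.352) and Ctla4 (-0.217 and 0.231). It held for Btla (0.152 and -0.0241). Beside shFabp7 cells Tigit changed by 0.33 over time, more than by partner. Between 24 and 48 h beside control cells, Lag3, Havcr2 and Cd244a rose, Pdcd1, Vsir, Btla and Pvrig fell, and Ctla4, Tigit and Cd160 did not pass the test. That made 7 of 10 genes past the threshold, where 67.7% of all tested genes were, with 35.8% higher and 32.0% lower. With the shFabp7 partner, Lag3, Havcr2, Cd244a, Tigit and Cd160 rose and Pdcd1 and Vsir fell, again 7 of 10, against 66.1% of all tested genes, 35.9% higher and 30.2% lower. Both shares lie near the background, so the counts say nothing particular about the receptors. The median absolute log2 change over time was 0.50 for the 10 genes and 0.50 for all tested genes beside control cells, and 0.60 and 0.48 beside shFabp7 cells. Each time comparison shares its groups with the partner comparisons, so their values are set side by side without a measure of likeness.

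**Figure D1:**
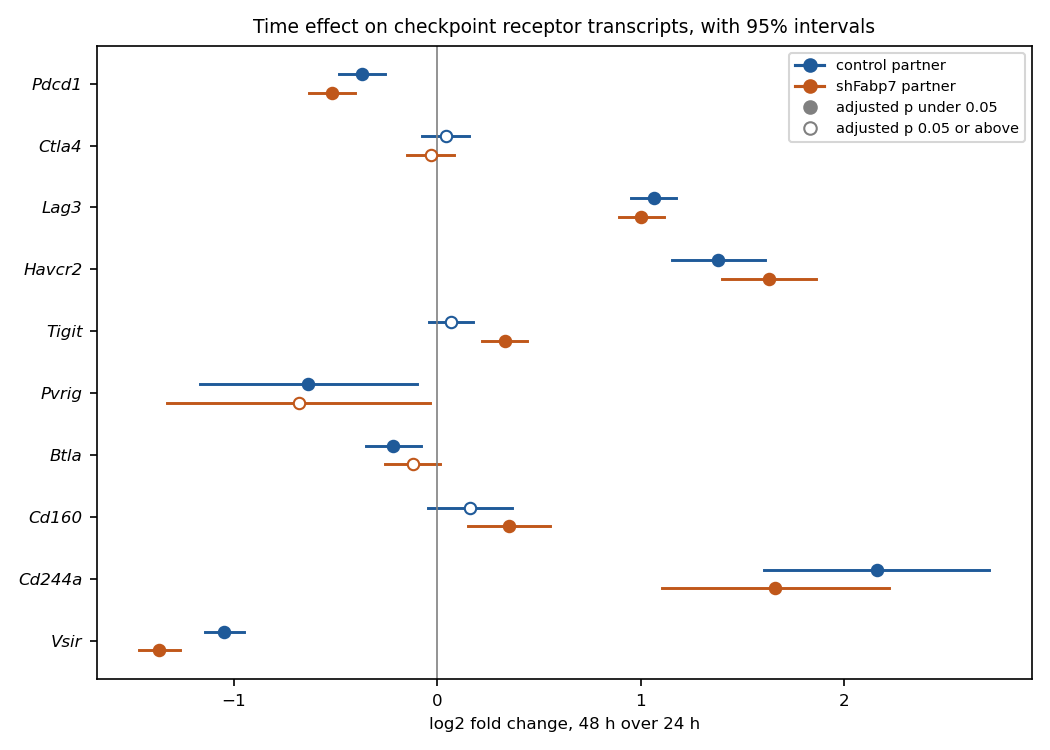
Log2 fold change of each receptor transcript from 24 h to 48 h (x axis) beside control cells (blue) and the shFabp7 partner (orange). Points are edgeR estimates, bars their 95% intervals, and filled points have an adjusted p under 0.05. Lag3, Havcr2 and Cd244a lie right of 0 and Pdcd1 and Vsir left of 0 beside either partner.

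The partner effect was small at 24 h and wider at 48 h. At 24 h only Pvrig differed, lower beside shFabp7 cells, which is 1 of 10 genes where 10.9% of all tested genes passed, 6.22% higher and 4.65% lower. At 48 h Tigit, Btla and Cd160 were higher and Vsir and Pvrig lower beside shFabp7 cells. These 5 of 10 stand beside 31.6% of all tested genes, 19.9% higher and 11.6% lower. The median log2 effect over the 10 genes was 0.10 at 24 h and 0.02 at 48 h, against -0.004 and 0.01 for all tested genes, and the median absolute effect was 0.12 and 0.24, against 0.15 and 0.21. The receptors did not move one way with the partner, and Pdcd1, Ctla4, Lag3, Havcr2 and Cd244a did not pass the test at either time. The split of all called genes into higher and lower hung on the scaling. The share higher was 57.2% at 24 h and 63.2% at 48 h with TMM, 42.1% and 39.9% with upper-quartile factors, and 33.2% and 40.5% when libraries were scaled by their totals.

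**Figure D2:**
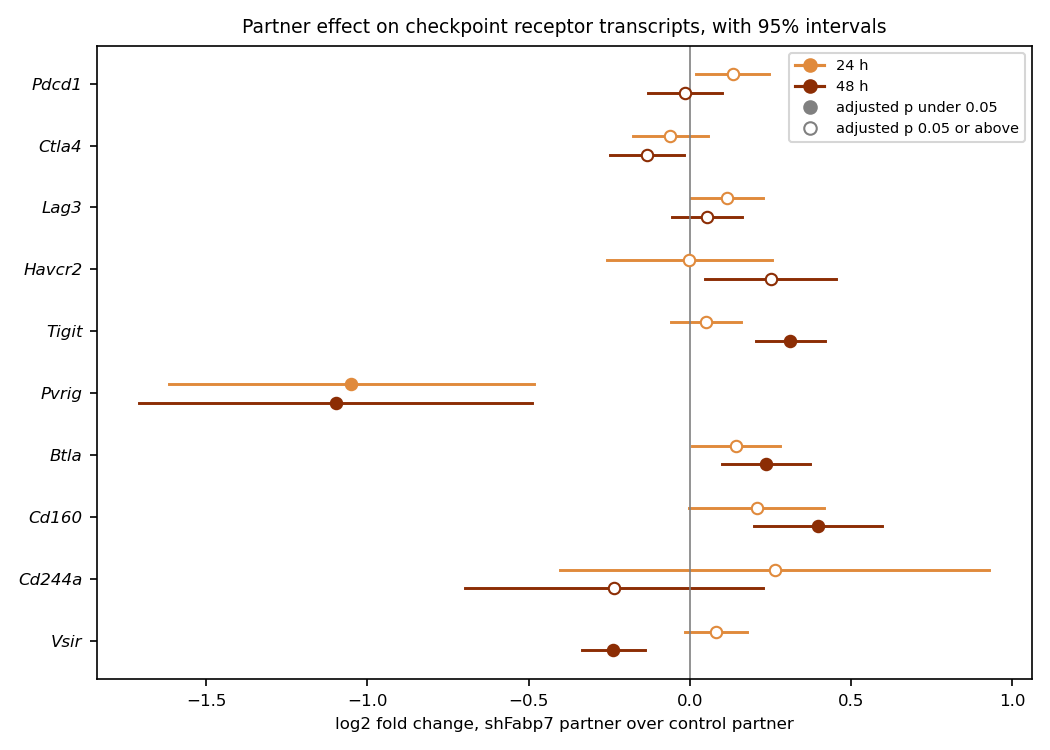
Log2 fold change of each receptor transcript beside shFabp7 cells over the control partner (x axis) at 24 h (light) and 48 h (dark). Points are edgeR estimates with 95% intervals, and filled points have an adjusted p under 0.05. Pvrig lies near -1 at both times, and the filled 48 h points of Tigit, Btla and Cd160 lie right of 0 and that of Vsir left of 0.

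The first receptors by role are those of the CD28 family. Pdcd1, the gene of PD-1, measured 82.5, 96.0 and 85.5 CPM beside control cells at 24 h and 97.8, 97.1 and 94.8 CPM beside shFabp7 cells. At 48 h it measured 66.8, 68.6 and 69.2 CPM beside control cells and 64.2, 69.8 and 68.7 CPM beside shFabp7 cells. All 6 libraries at 48 h were below all 6 at 24 h, while the partners overlapped at each time. Groups without overlap over time were common, at 68.6% of all tested genes beside control cells and 71.4% beside shFabp7 cells. Pdcd1 fell over time by 0.37 ± 0.056 on the log2 scale beside control cells (edgeR adjusted p = 5.57e-07) and by 0.52 ± 0.056 beside shFabp7 cells (adjusted p = 7.24e-10). Its partner effect was 0.13 ± 0.056 at 24 h (adjusted p = 0.121), but without control replicate 2 it was 0.22 with an adjusted p of 0.00716, so that library decides the call. At 48 h the partner effect of Pdcd1 was -0.01 with a 95% interval from -0.13 to 0.10 (adjusted p = 0.887).

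Ctla4, whose product outcompetes CD28 for CD80 and CD86 and is known as abundant in regulatory T cells, did not pass the test in any of the 5 comparisons. It measured 244, 231 and 214 CPM beside control cells at 24 h, and 206, 229 and 225 CPM beside shFabp7 cells. By 48 h it measured 216, 245 and 247 CPM beside control cells and 221, 210 and 214 CPM beside shFabp7 cells. The 4 groups overlapped. Over time Ctla4 changed by 0.04 beside control cells (95% interval -0.07 to 0.16, adjusted p = 0.538) and by -0.03 beside shFabp7 cells (-0.15 to 0.08, adjusted p = 0.643). With the control partner it passed as higher under upper-quartile scaling (0.14, adjusted p = 0.0272) and library totals alone (0.23, adjusted p = 0.000779). Those scalings placed the median of all tested genes at 0.145 and 0.233, where TMM placed it at 0.04. The 48 h partner effect of Ctla4 was -0.13 ± 0.057 (adjusted p = 0.0744), and it passed as lower under 5 of 8 other settings, with adjusted p from 0.00323 to 0.0384, and without control replicate 1 at 48 h (adjusted p = 0.00438). The 6 regulatory T cell markers went both ways over time, with 1 higher and 3 lower beside control cells and 2 higher and 3 lower beside shFabp7 cells. Over all tested genes 67.7% and 66.1% passed in these comparisons. Foxp3, the regulatory T cell transcription factor gene, measured 141 ± 6.90 CPM at 24 h and 27.6 ± 5.76 CPM at 48 h beside control cells, and 140 ± 3.76 and 28.2 ± 2.31 CPM beside shFabp7 cells. Tnfrsf18, which activated T cells express as well, rose from 254 ± 13.7 to 291 ± 4.91 CPM beside control cells. The part of regulatory T cells in the level of Ctla4 was not tested.

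Btla, which signals when it meets HVEM (Tnfrsf14), measured 86.5, 88.8 and 76.3 CPM beside control cells at 24 h and 92.5, 99.1 and 86.5 CPM beside shFabp7 cells. The 48 h values were 63.4, 75.4 and 78.1 CPM beside control cells and 85.8, 85.8 and 83.9 CPM beside shFabp7 cells. At 48 h all shFabp7 libraries were above all control libraries, where 44.0% of all tested genes did not overlap by partner. The lowest control library, replicate 1, stood apart from the other 2. Btla was higher beside shFabp7 cells at 48 h by 0.24 ± 0.067 (adjusted p = 0.00699). The call was lost without that library (0.15, adjusted p = 0.0562) and under upper-quartile scaling or library totals alone (adjusted p = 0.0903 and 0.101). At 24 h the partner effect was 0.14 ± 0.067 (adjusted p = 0.178). Over time Btla fell by 0.21 ± 0.067 beside control cells (adjusted p = 0.00588), although the groups overlapped. This call was lost under the same 2 scalings (adjusted p = 0.142 and 0.777), without replicate 2 at 24 h (adjusted p = 0.0781) and without replicate 1 at 48 h (adjusted p = 0.061).

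Tigit and Pvrig, which share ligands of the nectin family, moved in opposite directions with the partner. Tigit measured 75.5, 80.8 and 82.0 CPM beside control cells at 24 h and 80.5, 85.1 and 81.2 CPM beside shFabp7 cells. At the later time it measured 88.0, 82.5 and 79.6 CPM beside control cells and 100.9, 106 and 103 CPM beside shFabp7 cells. The 3 shFabp7 libraries at 48 h lay above the other 9. Tigit was higher beside shFabp7 cells at 48 h by 0.31 ± 0.053 (adjusted p = 2.06e-05) and its partner effect at 24 h was 0.05 ± 0.054 (adjusted p = 0.615). The difference between these effects was 0.26 ± 0.075 (adjusted p = 0.0342), a call that failed in 11 of the 12 fits without 1 library (adjusted p 0.0503 to 0.223) and held without control replicate 1 at 48 h (adjusted p = 0.00452). Over time Tigit rose by 0.33 ± 0.053 beside shFabp7 cells (adjusted p = 1.72e-06). With the control partner it changed by 0.07 ± 0.053 (adjusted p = 0.26), which became 0.26 with library totals alone (adjusted p = 6.15e-05) and 0.17 with upper-quartile scaling (adjusted p = 0.00538).

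Tigit, like Ctla4, is known as a gene of regulatory T cells. The 6 regulatory T cell markers summed to 1142 to 1200 CPM beside control cells at 48 h and to 1400 to 1451 CPM beside shFabp7 cells. Most of that gap was Il2ra, which activated T cells also express, at 725 ± 18.96 and 995 ± 27.1 CPM, and it was the 1 marker of the 6 called higher. Lrrc32 and Ikzf2 were called lower, from 15.1 ± 1.47 to 11.8 ± 1.10 CPM (-0.36 ± 0.083, adjusted p = 0.000996) and from 40.1 ± 0.569 to 36.2 ± 1.38 CPM (-0.15 ± 0.057, adjusted p = 0.0469). Foxp3 itself did not pass (0.03 ± 0.11, adjusted p = 0.876). Over all tested genes 19.9% were higher and 11.6% lower in this comparison. The part of these cells in the level of Tigit was not tested.

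Pvrig had few counts, between 17 and 65 per library. It measured 1.44, 1.39 and 1.85 CPM beside control cells at 24 h and 0.833, 0.671 and 0.751 CPM beside shFabp7 cells. At 48 h it measured 0.845, 1.26 and 0.907 CPM beside control cells and 0.428, 0.509 and 0.471 CPM beside shFabp7 cells. The groups did not overlap by partner at either time, as for 27.5% of all tested genes at 24 h and 44.0% at 48 h. Pvrig was lower beside shFabp7 cells, with a log2 fold change of -1.05 ± 0.28 at 24 h (adjusted p = 0.0128) and -1.10 ± 0.30 at 48 h (adjusted p = 0.0047). The 24 h call was lost when control replicate 3 was left out (-0.888, adjusted p = 0.078). It was also lost without replicate 2 of the other group (-0.957, adjusted p = 0.057). Over time Pvrig fell by 0.63 ± 0.26 beside control cells (adjusted p = 0.0328), a call lost without replicate 3 at 24 h (adjusted p = 0.174), without replicate 1 or 3 at 48 h (adjusted p = 0.119 and 0.0997) and under 3 other settings (adjusted p = 0.0722 to 0.134). With the shFabp7 partner its change over time was -0.68 ± 0.32 (adjusted p = 0.0588), which passed under RLE scaling (adjusted p = 0.0471).

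Lag3, a CD4-like receptor for MHC class II, doubled its level over time beside either partner. It measured 187, 199 and 198 CPM beside control cells at 24 h and 219, 208 and 205 CPM beside shFabp7 cells. By 48 h it measured 440, 403 and 378 CPM beside control cells and 437, 425 and 406 CPM beside shFabp7 cells. The 48 h libraries were all far above the 24 h libraries. Lag3 rose by 1.06 ± 0.055 (adjusted p = 3.79e-18) and 1.00 ± 0.054 (adjusted p = 2.03e-17), which is 2.09-fold and 2.00-fold. The partner groups did not overlap at 24 h, as for 27.5% of all tested genes, but the effect of 0.12 ± 0.055 did not pass (adjusted p = 0.179). At 48 h the partner effect was 0.05 with an interval from -0.05 to 0.16 (adjusted p = 0.483), and it was -0.03 under upper-quartile scaling and with library totals alone.

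Havcr2, the gene of TIM-3, a receptor known from dysfunctional T cells and from myeloid cells, was low at 24 h and higher at 48 h. It measured 4.27, 4.49 and 4.30 CPM beside control cells at 24 h and 4.71, 4.49 and 3.88 CPM beside shFabp7 cells. The 48 h values were 12.8, 10.9 and 10.4 CPM beside control cells and 13.3, 13.2 and 13.9 CPM beside shFabp7 cells. Havcr2 rose over time by 1.38 ± 0.11 (2.60-fold, adjusted p = 6.97e-13) and 1.63 ± 0.11 (3.10-fold, adjusted p = 1.25e-14). At 48 h the partner groups did not overlap, as for 44.0% of all tested genes, and the effect was 0.25 ± 0.10 (adjusted p = 0.0539). That effect passed under RLE scaling (adjusted p = 0.0428) and without control replicate 1 (adjusted p = 0.0127). The summed level of 10 monocyte and macrophage markers was 13.8 to 15.9 CPM at 24 h and 15.8 to 17.9 CPM at 48 h beside control cells, and 11.5 to 12.98 and 14.9 to 16.3 CPM beside shFabp7 cells. Of 6 tested, 2 rose and 2 fell beside either partner. The mean sum of 8 dendritic cell markers went from 22.4 to 58.2 CPM beside control cells (16.7 to 35.4 CPM beside shFabp7 cells). Of 4 tested, 3 rose and 1 fell beside either partner, where 67.7% and 66.1% of all tested genes passed. Beside control cells Itgax went from 2.49 to 9.81 CPM and Flt3 from 1.97 to 1.28 CPM. Ccr9, which T cells also express, made up 32.7 and 10.9 CPM of the 48 h sums. The part of myeloid cells in the level of Havcr2 was not tested.

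Cd160 and Cd244a encode receptors also found on NK cells. CD160 binds HVEM, as BTLA does, and 2B4 binds CD48. Cd160 measured 12.5, 12.7 and 9.08 CPM beside control cells at 24 h and 12.5, 14.6 and 12.6 CPM beside shFabp7 cells. At the later time it measured 13.03, 12.5 and 12.8 CPM beside control cells and 17.1, 16.97 and 16.4 CPM beside shFabp7 cells. The 3 shFabp7 libraries at 48 h were above the other 9. Cd160 was higher beside shFabp7 cells at 48 h by 0.40 ± 0.098 (1.32-fold, adjusted p = 0.00182), and this call held in every alternative run (adjusted p up to 0.0138). Its partner effect at 24 h was 0.21 ± 0.10 (adjusted p = 0.203), and the difference between the times was not past the threshold (0.19 ± 0.14, adjusted p = 0.519). Over time Cd160 rose by 0.35 ± 0.099 beside shFabp7 cells (adjusted p = 0.0023). With the control partner it changed by 0.16 ± 0.10 (adjusted p = 0.157), which passed without replicate 2 at 24 h (0.27, adjusted p = 0.0355), under upper-quartile scaling (0.26, adjusted p = 0.021) and with library totals alone (0.35, adjusted p = 0.00282).

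Cd244a had 12, 19 and 18 counts beside control cells at 24 h, 14, 21 and 18 beside shFabp7 cells, and at 48 h 81, 92 and 69 beside control cells and 87, 61 and 56 beside shFabp7 cells. It rose from 0.466 ± 0.084 to 2.10 ± 0.33 CPM beside control cells and from 0.565 ± 0.13 to 1.78 ± 0.26 CPM beside shFabp7 cells. The rise was 4.46-fold beside control cells (log2 2.16 ± 0.27, adjusted p = 1.64e-08) and 3.16-fold beside shFabp7 cells (log2 1.66 ± 0.27, adjusted p = 2.45e-06). Its partner effects had wide intervals, from -0.40 to 0.93 at 24 h and from -0.70 to 0.23 at 48 h. The summed level of 8 NK cell markers was 5.81 to 7.79 CPM at 24 h and 6.12 to 6.92 CPM at 48 h beside control cells, and 5.13 to 5.50 and 3.87 to 4.72 CPM beside shFabp7 cells. Of 6 tested markers none was higher and 2 were lower beside shFabp7 cells at 48 h, Klrb1c and Kit. Of all tested genes 19.9% were higher and 11.6% lower there. Kit, which other cells express as well, made up 3.14 ± 0.351 and 1.91 ± 0.104 CPM of these sums at 48 h. Ncr1, a defining NK cell gene, had 6 to 29 counts per library. The part of NK cells in the levels of Cd160 and Cd244a was not tested.

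Vsir, the gene of VISTA, fell over time beside either partner, and its partner effect differed between the times. It measured 354, 362 and 358 CPM beside control cells at 24 h and 378, 376 and 383 CPM beside shFabp7 cells. At 48 h it measured 177, 168 and 175 CPM beside control cells and 144, 146 and 152 CPM beside shFabp7 cells. The partners did not overlap at either time, as for 27.5% of all tested genes at 24 h and 44.0% at 48 h. Their order was turned around, with the shFabp7 libraries above at 24 h and below at 48 h. Vsir fell by 1.05 ± 0.048 beside control cells (adjusted p = 1.89e-19) and by 1.36 ± 0.048 beside shFabp7 cells (adjusted p = 1.64e-22). Its partner effect was 0.08 ± 0.047 at 24 h (adjusted p = 0.289) and -0.24 ± 0.048 at 48 h (adjusted p = 0.00022). The difference between these effects, -0.32 ± 0.067, passed the test (adjusted p = 0.00391) and held in every alternative run (adjusted p up to 0.0192). In this comparison 2 of 10 receptors passed, Tigit higher and Vsir lower, where 5.60% of all tested genes did, 4.43% higher and 1.17% lower. That background was itself unsteady. The number of genes called was 949 with all libraries, and from 319 (without shFabp7 replicate 2 at 24 h) to 1680 (without control replicate 1 at 48 h) without 1 library. The share higher among the called genes was 79.0% with TMM and 48.9% with upper-quartile scaling.

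The T cell markers moved as well. Over time 8 of the 10 fell and 2, Cd4 and Cd3g, rose beside either partner, Cd3e from 408 ± 15.3 to 264 ± 8.74 CPM beside control cells. Of all tested genes 67.7% passed over time beside control cells and 66.1% beside shFabp7 cells. At 48 h Cd5 and Cd6 were higher and Cd3d, Cd3g, Cd247, Cd8a and Cd8b1 lower beside shFabp7 cells, and at 24 h 1 marker, Cd5, was higher and none lower. By partner 31.6% of all tested genes passed at 48 h and 10.9% at 24 h. Cd8a, the CD8 alpha chain gene, measured 353 ± 14.99 CPM at 24 h and 161 ± 4.43 CPM at 48 h beside control cells, and 336 ± 25.5 and 138 ± 3.44 CPM beside shFabp7 cells. Its partner effect was -0.07 ± 0.053 at 24 h (adjusted p = 0.455), where that of Vsir was 0.08, and -0.23 ± 0.054 at 48 h (adjusted p = 0.00143), and its change over time beside control cells was -1.13 ± 0.054 (adjusted p = 5.41e-19). Cd4 measured 459 ± 9.12 and 562 ± 13.2 CPM beside control cells and 428 ± 9.92 and 561 ± 14.1 CPM beside shFabp7 cells. The part of a changed mix of CD4 and CD8 T cells in the receptor levels was not tested.

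**Figure D3:**
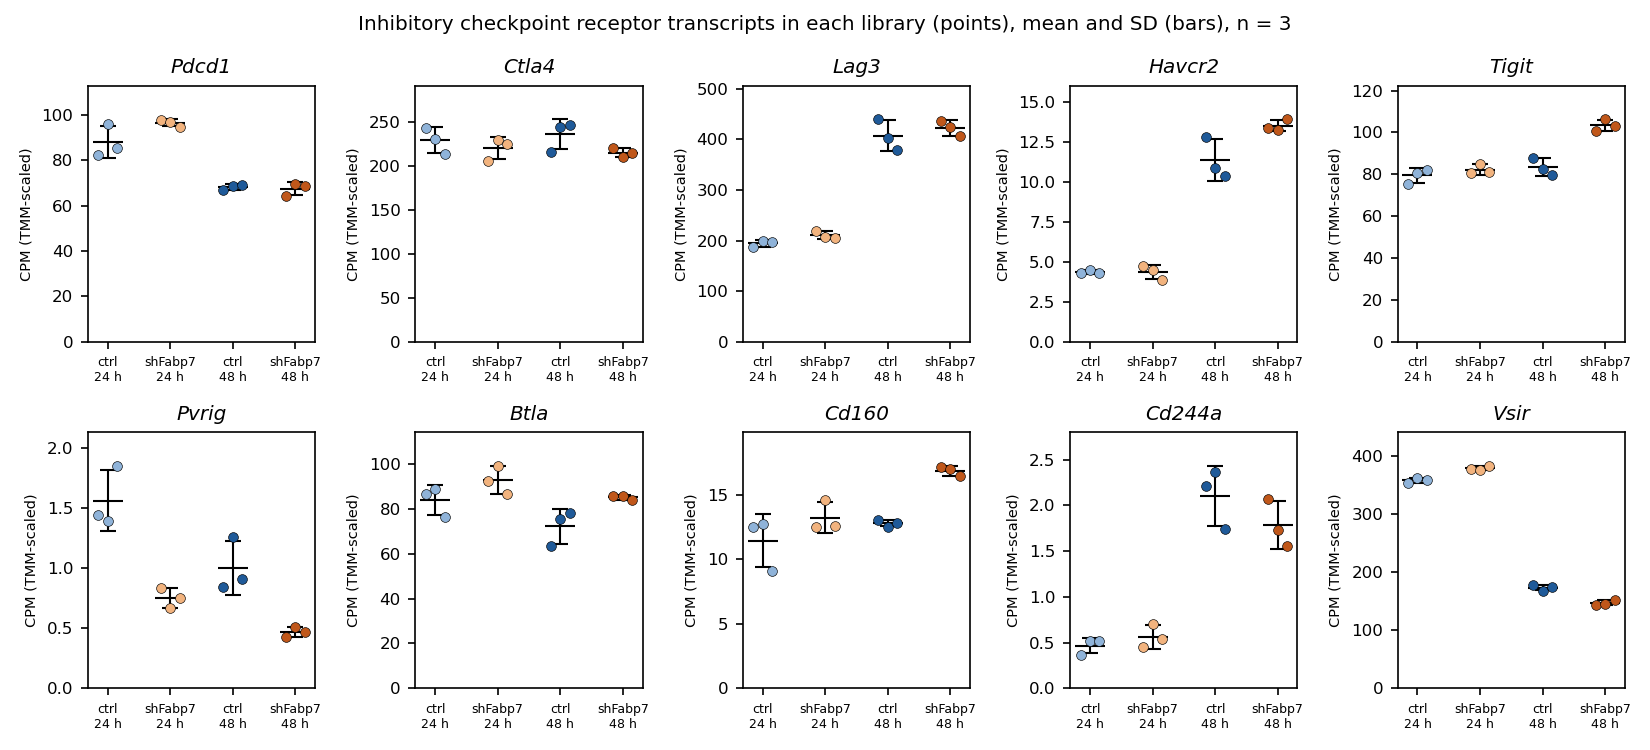
Level of each receptor transcript in CPM (TMM-scaled, linear axis from 0) in every library, by partner and time, with the mean and SD of 3 libraries as bars. Lag3 and Havcr2 are higher and Vsir lower in all 6 libraries at 48 h, and the 3 shFabp7 libraries at 48 h are the highest for Tigit and Cd160.

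On the TMM scale the summed level of the 10 genes stayed within a narrow range, while its make-up differed between the times. The TMM factors of the control libraries were 0.9513 to 0.9628 at 24 h and 1.081 to 1.098 at 48 h. The change of the sum over time therefore depends on the scaling. The sum was 1051.1 ± 23.8 CPM beside control cells at 24 h, 1100.2 ± 12.8 CPM beside shFabp7 cells at 24 h, 1067.3 ± 13.9 CPM beside control cells at 48 h and 1073.7 ± 12.6 CPM beside shFabp7 cells at 48 h. The sums did not overlap by partner at 24 h, at 1029 to 1076.4 CPM beside control cells and 1091.9 to 1114.9 CPM beside shFabp7 cells. Lag3 made up 18.5 ± 0.67% of the sum at 24 h and 38.1 ± 2.4% at 48 h beside control cells, and 19.2 ± 0.80% and 39.3 ± 0.99% beside shFabp7 cells. Vsir went the other way, from 34.1 ± 0.63% to 16.3 ± 0.47% beside control cells and from 34.4 ± 0.64% to 13.7 ± 0.55% beside shFabp7 cells. Ctla4 kept a share of 19.99 to 22.1% in the 4 groups. Shares of a sum of CPM favour long transcripts, so they describe change and not the order of the genes.

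**Figure D4:**
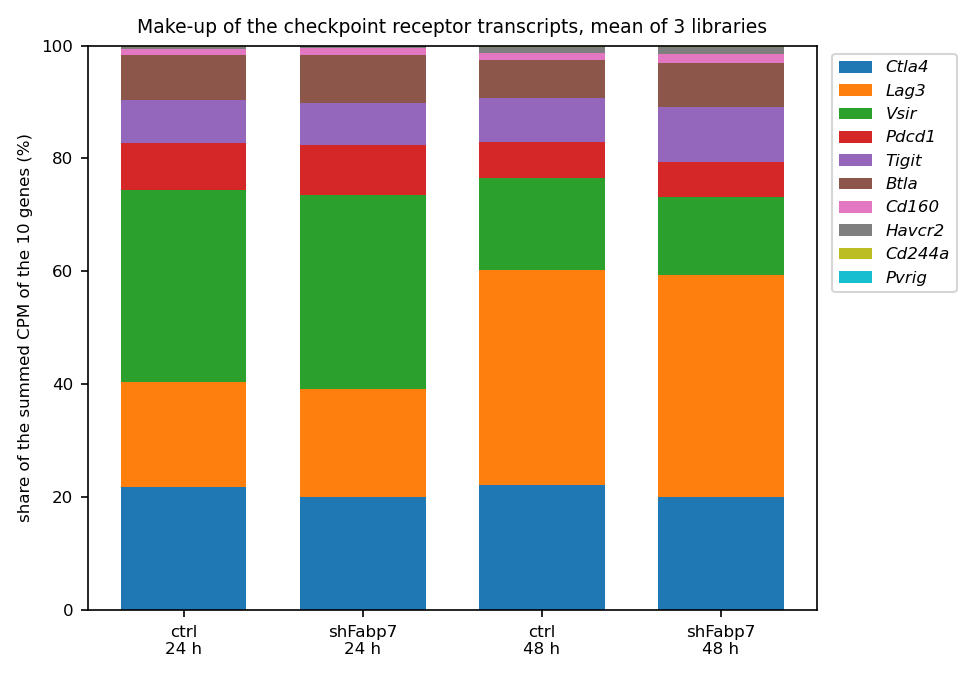
Share of the summed CPM of the 10 receptor genes held by each gene (y axis, percent, stacked to 100) in the 4 groups, mean of 3 libraries. The Lag3 segment grows from 18.5% to 38.1% and the Vsir segment shrinks from 34.1% to 16.3% beside control cells.

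Divided by the length of the longest transcript, the order of the levels could be compared between genes. With the control partner at 24 h it ran from Ctla4 with 119 ± 7.7 CPM per kb, Lag3 with 97.2 ± 3.2, Tigit with 86.5 ± 3.8, Vsir with 73.9 ± 0.84 and Pdcd1 with 45.6 ± 3.7 to Btla with 25.8 ± 2.0 CPM per kb. Cd160 followed with 4.42 ± 0.79 CPM per kb, then Havcr2 with 1.60 ± 0.045, Pvrig with 1.45 ± 0.23 and Cd244a with 0.124 ± 0.022. Havcr2 and Pvrig did not differ beyond their spread. At 48 h beside control cells Lag3 was first with 203 ± 15 CPM per kb, ahead of Ctla4 with 122 ± 8.8 and Tigit with 90.7 ± 4.7, and Vsir and Pdcd1, at 35.8 ± 0.97 and 35.3 ± 0.65, did not differ beyond their spread. Beside shFabp7 cells the order at 24 h was the same, and at 48 h Lag3 led with 211 ± 7.8 CPM per kb, followed by Tigit with 113 ± 2.9 and Ctla4 with 111 ± 2.8, which did not differ beyond their spread. The order depends on the transcript used: with the median transcript length Vsir was first at 24 h, at 558 ± 6.4 CPM per kb, ahead of Ctla4 at 332 ± 22. At 48 h that length placed Ctla4 beside Lag3 with the control partner, at 341 ± 25 and 335 ± 25 CPM per kb. With the shFabp7 partner at 48 h it placed Lag3 at 348 ± 13, Ctla4 at 311.5 ± 7.8, Vsir at 229.6 ± 6.5 and Tigit, whose length did not change, at 113 ± 2.9. Lengths came from GENCODE vM21 and may not match the isoforms in these cells.

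Ratios of raw counts within a library need no scaling. They were taken for Ctla4 and Tigit against a receptor for the same ligands, for Btla against its ligand and for Lag3 against Vsir. Ctla4 over Cd28 was 0.949 ± 0.038 beside control cells and 0.778 ± 0.036 beside shFabp7 cells at 48 h, with no overlap, and 0.926 ± 0.12 and 0.949 ± 0.090 at 24 h. Tigit over Cd226, the activating receptor for the same ligands, was 1.14 ± 0.15 and 1.36 ± 0.075 at 48 h, from 0.984 to 1.29 and from 1.31 to 1.45. At 24 h that ratio was 1.91 ± 0.21 and 1.75 ± 0.054. Btla over Tnfrsf14, itself a receptor too, was 1.18 ± 0.21 and 1.70 ± 0.085 at 48 h, again without overlap, against 0.566 ± 0.075 and 0.680 ± 0.039 at 24 h. Lag3 over Vsir was 2.35 ± 0.166 and 2.87 ± 0.185 at 48 h, without overlap, and 0.5435 ± 0.0125 and 0.5565 ± 0.0222 at 24 h. The ratios were chosen with the levels known and are given as descriptions.

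Of 18 listed ligands of these receptors, 16 could be tested. At 24 h none was higher and 3 were lower beside shFabp7 cells, with a median log2 effect of -0.15 against -0.004 for all tested genes, of which 6.22% were higher and 4.65% lower. The 3 were H2-Aa, an MHC class II chain and LAG-3 ligand, at -0.39 ± 0.071 (adjusted p = 0.000538), and the CTLA-4 ligands Cd86 at -0.46 ± 0.12 (adjusted p = 0.0108) and Cd80 at -0.33 ± 0.11 (adjusted p = 0.0396). The call of Cd86 was lost without shFabp7 replicate 2 (adjusted p = 0.0648), and that of Cd80 in 5 of the 6 fits without 1 library (adjusted p 0.0626 to 0.205) and under 4 other settings (adjusted p 0.053 to 0.0617). At 48 h 3 were higher and 5 lower, with a median of -0.09 against 0.01 for all tested genes, of which 19.9% were higher and 11.6% lower. H2-Aa was lower (-0.60 ± 0.072, adjusted p = 7.04e-08), as were Tnfrsf14 (-0.30 ± 0.059, adjusted p = 0.000142), Nectin2 (-0.72 ± 0.21, adjusted p = 0.00745) and Selplg, a VISTA ligand (-0.17 ± 0.051, adjusted p = 0.0102). The call of Selplg was lost without shFabp7 replicate 1 (adjusted p = 0.0524). Pvr, the main TIGIT ligand, was higher by 0.36 ± 0.061 (adjusted p = 2.37e-05) at 48 h. Cd80, lower at 24 h, was higher at 48 h, at 18.1 CPM beside control cells and 21.9 CPM beside shFabp7 cells (0.27 ± 0.086, adjusted p = 0.0153). This call was lost in 4 of 6 fits without 1 library (adjusted p 0.058 to 0.0908), under upper-quartile scaling and with library totals alone (adjusted p = 0.107 and 0.106). Cd86 was lower again (-0.38 ± 0.12, adjusted p = 0.0157), a call lost in 3 of 6 such fits (adjusted p 0.0508 to 0.248). The PD-1 ligand gene Cd274 was not past the threshold at either time, at 302 and 283 CPM at 24 h and 173 and 164 CPM at 48 h beside control and shFabp7 cells. Nor was H2-Ab1, the other MHC class II chain gene listed. It changed by -0.27 ± 0.095 at 24 h (adjusted p = 0.072) and measured 26.4 and 23.3 CPM at 48 h beside control and shFabp7 cells. These ligands are also made by antigen-presenting cells. The summed level of 8 dendritic cell markers was lower beside shFabp7 cells, 34.5 to 36.6 CPM against 56.0 to 60.1 CPM at 48 h and 16.1 to 17.6 against 21.98 to 22.8 CPM at 24 h. Most of that gap was Ccr9, a gut homing receptor gene that T cells also express, at 32.7 ± 2.4 and 10.9 ± 0.37 CPM at 48 h, while Cd209a had no count in any group. Their part in the ligand levels was not tested.

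Among 6 other receptors and ligands that share binding partners with the checkpoint receptors, 1 was higher and 1 lower at each time. These 2 of 6 stand beside 10.9% of all tested genes at 24 h and 31.6% at 48 h. At 24 h Tnfsf14 (LIGHT) was higher by 0.38 ± 0.063 (adjusted p = 0.000239), and at 48 h Cd28 was higher by 0.16 ± 0.053 (adjusted p = 0.0209). Cd96, a receptor of the CD226 ligands described as inhibitory in mice, was lower at 24 h (-0.24 ± 0.064, adjusted p = 0.0151) and at 48 h (-0.19 ± 0.060, adjusted p = 0.0144). The call of Cd28 was lost in 3 of 6 fits without 1 library (adjusted p 0.0552 to 0.105) and under upper-quartile scaling and library totals alone (adjusted p = 0.332 and 0.315). That of Cd96 was lost in 4 of 6 such fits at 24 h (adjusted p 0.0616 to 0.0977) and in 2 at 48 h (adjusted p = 0.0667 and 0.11). The median effect of the 6 genes was -0.02 at 24 h and 0.03 at 48 h.

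Of 9 tested genes whose proteins act at the tails of these receptors, 2 were higher at 24 h and 4 at 48 h beside shFabp7 cells, and none was lower, where 6.22% and 19.9% of all tested genes were higher. They do not all carry an inhibitory signal: Lck, Fyn and Grb2 also serve the activating T cell receptor. At 48 h the 4 were Bag6, whose product binds the TIM-3 tail and is known to hold off its inhibitory signal, by 0.31 ± 0.057 (adjusted p = 5.99e-05), Grb2 by 0.20 ± 0.051 (adjusted p = 0.00254), and the phosphatase genes Ptpn11 (SHP-2) by 0.18 ± 0.049 (adjusted p = 0.00396) and Ptpn6 (SHP-1) by 0.15 ± 0.050 (adjusted p = 0.0228). The median effect of the 9 genes at 48 h was 0.12, against 0.01 for all tested genes. Under upper-quartile scaling Grb2, Ptpn11 and Ptpn6 were no longer past the threshold (adjusted p = 0.0881, 0.132 and 0.378), nor were they with library totals alone. The call of Ptpn6 was also lost with no filter, on the compared groups alone (adjusted p = 0.0786 and 0.0535) and in 4 of 6 fits without 1 library (adjusted p 0.0533 to 0.131). At 24 h Bag6 was higher by 0.18 ± 0.057 (adjusted p = 0.0354) and the kinase gene Fyn by 0.16 ± 0.051 (adjusted p = 0.0397), and each call was lost in 3 of 6 such fits (adjusted p 0.0616 to 0.187) and under both those scalings (adjusted p 0.0701 to 0.139).

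Of 7 genes of receptor trafficking and shedding 1 passed at each time, where 10.9% and 31.6% of all tested genes did. Trat1, which holds CTLA-4 at the surface, was lower at 24 h (-0.28 ± 0.080, adjusted p = 0.0239) and Def6, a partner of LRBA in the recycling of CTLA-4, was higher at 48 h (0.16 ± 0.053, adjusted p = 0.0208). Each of these calls was lost in 4 of 6 fits without 1 library (adjusted p 0.051 to 0.2 for Trat1 and 0.0538 to 0.109 for Def6), and that of Def6 also under upper-quartile scaling, library totals alone and no filter (adjusted p 0.0571 to 0.326). The sheddase genes Adam10 and Adam17 did not pass at either time.

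Of 14 transcription factor genes known to act on checkpoint genes, 3 were higher and none lower beside shFabp7 cells at 24 h, and 6 were higher and 2 lower at 48 h. Of all tested genes 6.22% were higher and 4.65% lower at 24 h, and 19.9% and 11.6% at 48 h. At 24 h Batf was higher by 0.30 ± 0.057 (adjusted p = 0.000788), Nr4a1 by 0.23 ± 0.053 (adjusted p = 0.0039) and Nr4a2 by 0.35 ± 0.078 (adjusted p = 0.00449). At 48 h Batf was higher by 0.43 ± 0.055 (adjusted p = 2.65e-07), Irf4 by 0.42 ± 0.058 (adjusted p = 7.96e-07), Tbx21 by 0.32 ± 0.057 (adjusted p = 3.8e-05), Nr4a3 by 0.34 ± 0.064 (adjusted p = 0.000106) and Nr4a2 by 0.33 ± 0.074 (adjusted p = 0.00101). BATF and IRF4 act as a pair on antigen-induced genes, and NR4A factors are known from T cells with raised PD-1 and TIM-3. Tox, best known for driving exhaustion, did not pass at either time. The 2 lower at 48 h were Tox2, at 4.34 CPM beside control and 2.97 CPM beside shFabp7 cells, and Maf, at 39.3 and 35.0 CPM. The call of Tox2 was lost without control replicate 3 (adjusted p = 0.0872). That of Maf was lost with DESeq2 and RLE scaling (adjusted p = 0.0754 and 0.0635). It was also lost in every fit without 1 library except the one without control replicate 2 (adjusted p 0.0572 to 0.179). The median effect of the 14 genes was 0.04 at 24 h and 0.14 at 48 h, against -0.004 and 0.01 for all tested genes.

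**Figure D5:**
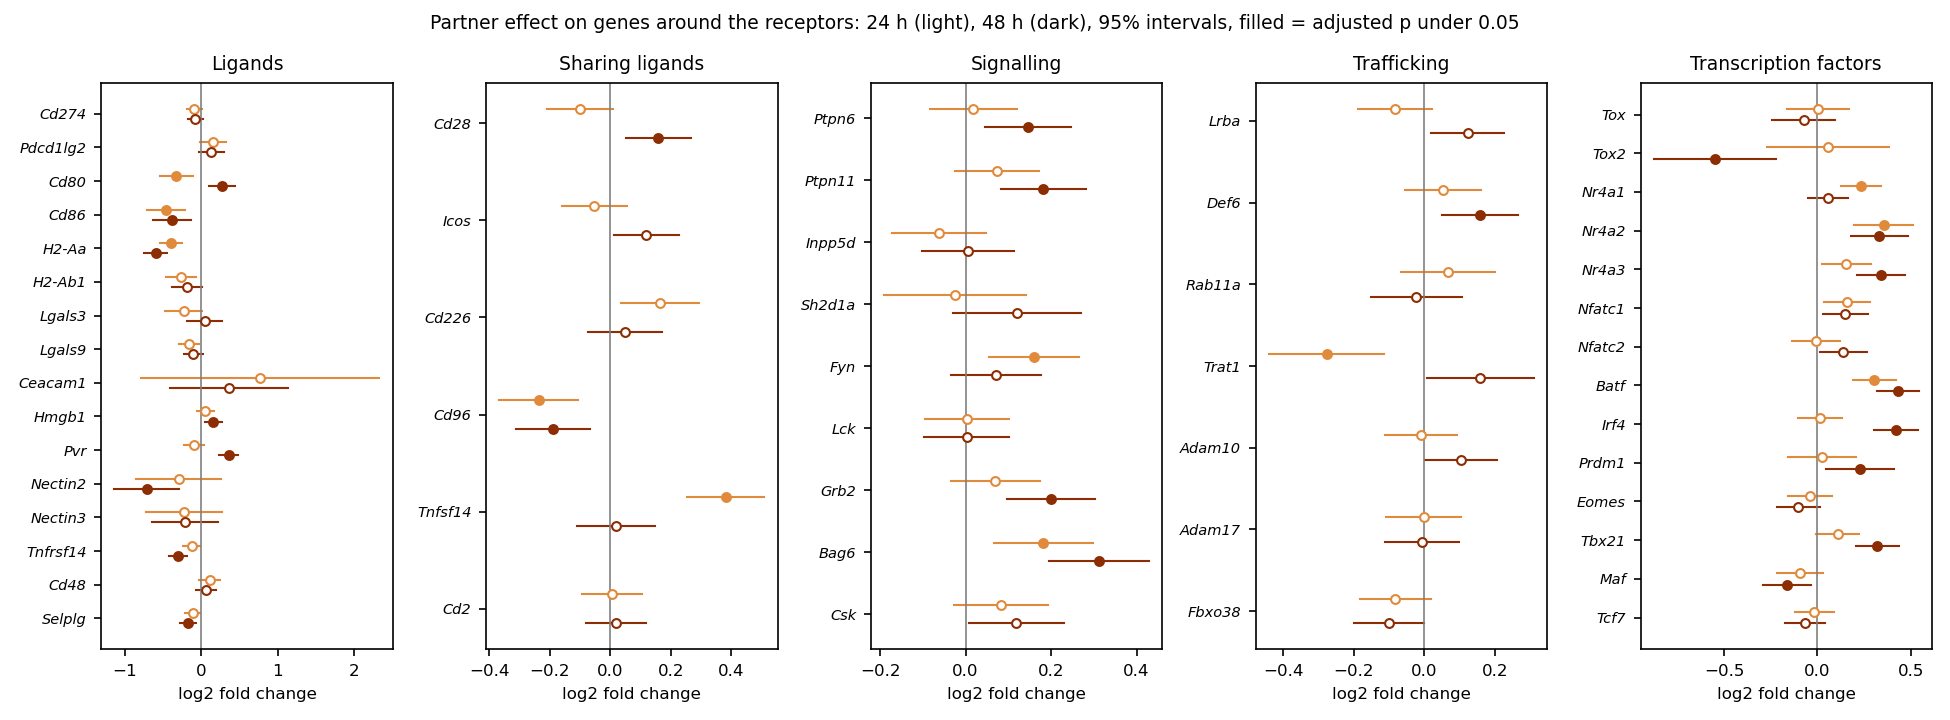
Log2 fold change beside shFabp7 cells over the control partner (x axes) for ligands, receptors and ligands that share them, signalling genes, trafficking genes and transcription factors, at 24 h (light) and 48 h (dark), with 95% intervals and filled points for an adjusted p under 0.05. Batf and Nr4a2 lie right of 0 at both times and H2-Aa left of 0 at both.

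For each receptor past the threshold in a pairwise comparison, the 2 genes most like it over the 12 libraries were found among 11783 candidates by the root mean square difference of centred log2 CPM. The closest to Vsir were Vrk3 (0.063) and Cd8a (0.079), against a spread of Vsir itself of 0.64. The closest to Pvrig were Nt5e (0.205), the gene of the adenosine-making enzyme CD73, and Zbtb20 (0.306). The closest to Cd160 were Fam162a (0.096) and Batf (0.096), and to Tigit Tnpo2 (0.034) and Anapc5 (0.043). Lag3 was closest to Igf2r (0.071) and Chd9 (0.073), Havcr2 to Dennd3 (0.088) and Septin8 (0.088), Pdcd1 to Sap30l (0.048) and Rps15 (0.049), Btla to Eif2s3x (0.047) and Atp6v1h (0.051), and Cd244a to Lpar3 (0.171) and Rad51b (0.180). The measure is a description, and the compared genes share libraries and scaling.

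The sources used here do not give the strand setting of the counting, and reads from overlapping genes cannot be told apart for 4 receptors. Cd244a overlaps Ly9 on the other strand, which measured 128 to 132 CPM in the 4 groups, while Cd244a stayed at or under 2.37 CPM in every library. Vsir overlaps Cdh23 on the other strand, at 9.43, 10.1, 6.002 and 6.83 CPM in the groups control and shFabp7 at 24 h and control and shFabp7 at 48 h, a small amount beside Vsir. Cd160 overlaps Pdzk1, with 4 to 30 counts per library, and Ctla4 overlaps the pseudogene Rpl18-ps1, with 10 to 56 counts.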

How the data were processed

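RNA-seq libraries of co-cultured T cells were compared by partner and time. The authors deposited raw read counts per gene symbol, not normalized. The submitters' processing notes list, without roles or order, HTSeq 0.6.1p1, TopHat2 2.0.13, CASAVA 1.8.2 and the build GRCm39. Their settings, strand mode and annotation are not given in the sources used here.

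Groups were taken from the sample labels, and 0 columns were left unmapped. In R 4.3.3, genes were filtered with edgeR 4.0.16 filterByExpr (minimum count 10, minimum total 15), scaled by TMM and fitted by quasi-likelihood with robust dispersions, 1 coefficient per group, over all 12 libraries. This gave 5 comparisons, and depth limits Pvrig and Cd244a most. Interval bounds cover 95%, and a count of 0 is read as at most 3 counts, for counting error only. The procedure was tested on simulated data. Results were recomputed without each library, with a replicate block, on the compared groups alone, with no filter or a stricter one (1 CPM in 3 libraries and 100 counts), with upper-quartile or RLE factors or library totals alone, and with DESeq2 1.42.0.

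The 10 receptors and the gene lists were chosen with earlier results of these data known. All 10 receptors are named. The lists held ligands, molecules sharing them, signalling, trafficking and transcription factor genes. From each, up to 5 genes past the threshold per partner comparison are named, by smallest adjusted p. Cd274, H2-Ab1, Tox, Tox2, Maf, Adam10 and Adam17 were named besides, after their values were seen. Cell type markers are given as summed levels with examples.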

Additional observations from a re-analysis of the deposited data

Results flagged for a closer look

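The partner effect of Vsir differed between the times. It was 0.08 on the log2 scale at 24 h and -0.24 at 48 h, and the difference of -0.319 passed edgeR's quasi-likelihood test (adjusted p = 0.00391). All 3 shFabp7 libraries were above the control libraries at 24 h and all 3 were below them at 48 h. The 24 h effect itself did not pass that test (adjusted p = 0.289). Groups did not overlap by partner for 27.5% of all tested genes at 24 h and 44.0% at 48 h.

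The partner effect of Tigit also differed between the times, by 0.262 (adjusted p = 0.0342), from 0.05 at 24 h to 0.31 at 48 h. This call was lost in 15 of the 19 alternatives, 11 of them the 12 fits without 1 library and the others RLE scaling, upper-quartile scaling, library totals alone and no filter. The value was positive in all 19, with adjusted p from 0.00452 to 0.223.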

How the results depend on the processing

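Over the 10 receptors and 5 comparisons, 680 of the alternative values kept their direction and their side of the threshold, 30 were weaker, 23 were stronger and 17 turned direction, none of the last past the threshold. Without 1 library, the number of receptors past the threshold was 0 to 2 for the partner at 24 h (1 with all libraries) and 1 to 2 for the difference between the times (2 with all). The latter count was 1 under RLE scaling, upper-quartile scaling, library totals alone and no filter, where Tigit was lost. The turned values were all small. Havcr2 at 24 h was 0.0263 with DESeq2 and with RLE scaling, 0.023 with no filter and -0.0406 to 0.0978 without 1 library. Lag3 at 48 h was -0.0315 with upper-quartile scaling and -0.0295 with library totals. Over time beside shFabp7 cells, Ctla4 was 0.00901 and 0.117 with these scalings and Btla 0.0268 with library totals. Without 1 library, Ctla4 at 24 h was -0.087 to 0.00677, Pdcd1 at 48 h -0.0375 to 0.0224, and the differences between the times -0.00191 to 0.152 for Btla and -0.237 to 0.149 for Pvrig. The count of all tested genes called at 24 h was 949 without control replicate 1 and 1045 without shFabp7 replicate 1, against 1842, and for the difference between the times 319 to 1680 without 1 library, against 949. Same-numbered libraries did not deviate together over all tested genes (correlations from -0.067 to 0.0101). With 3 libraries per group this cannot tell whether they shared an animal or a culture. With the replicate block the receptors past the threshold numbered 1, 5, 7, 7 and 2, as without it, and 1777 genes were called at 24 h. Depth limits Pvrig (17 to 65 counts) and Cd244a (12 to 92 counts). Where leaving out a library left 2 in a group, the spread was pooled over all groups.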
